A study of Mus musculus with 12 samples.

Results

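The hearts of female C57BL/6J mice, an inbred laboratory strain, were compared after 6 weeks of treadmill running and after the same time in the cage. The members are the 6 female libraries among the 12 of the series, taken by group label: 3 from exercised and 3 from sedentary females. All animals were wild type. Over the 6 weeks exercised mice had 5 running days per week, each of 45 min at 1 km/h, and sedentary mice were age-matched animals that did not run. The sources used here give neither the age nor how the hearts were trimmed. Hearts were kept in a preservative for RNA, and bulk RNA-seq was done by a commercial service. That a library stands for 1 animal is an assumption, so the tests measure the spread between libraries. The 6 male libraries, of the same strain, running protocol and design, entered the estimate of spread and serve for comparison only.

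The heart of a mouse burns mainly fatty acids, which enter mitochondria through the carnitine shuttle, are cut by beta-oxidation and feed the citric acid cycle and the respiratory chain. Endurance training is known in rodents for a mild growth of the heart that differs from the growth under pressure overload. Overload brings back a fetal programme, with natriuretic peptides, the slow myosin Myh7 and skeletal actin Acta1, and it thickens the matrix, whereas training is described as raising oxidative enzymes. Gene lists for these processes and for the cell types of the heart are described here by how many members lay on each side of 0, by their median, and by how many had libraries that did not overlap between the groups.

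Levels are nuclear counts scaled to a common library size (CPM), and a difference is the log2 of exercised over sedentary with its standard error (SE). Values of the 3 libraries of a group are given in the order 1 to 3. Nuclear counts ran from 22204349 to 26607844 per library over the series. The 6 ventricular markers summed to 40509.9 to 41272 CPM in exercised and 39684 to 41653 CPM in sedentary libraries. The myosin gene Myh6 made up most of each sum. The sums therefore say little about the other markers and do not measure the share of ventricular tissue. Summed over Ddx3y, Eif2s3y, Kdm5d and Uty, which lie on the Y chromosome, there were 41, 26 and 41 counts in the exercised and 4, 3 and 11 in the sedentary libraries, against 3784 to 4957 in males. Female libraries thus held few Y-linked counts, more of them in the exercised group, and whether this moved with any other value was not tested.

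In 3 of the 6 libraries the hearts also carried transcripts of other tissue. Myl7, the atrial myosin light chain, stood at 2.34, 107 and 0.904 CPM in the exercised and 65.6, 23.0 and 0.975 CPM in the sedentary libraries, and Sln, the atrial regulator of the calcium pump, at 1.04, 43.6 and 0.113 CPM against 25.4, 7.91 and 0 CPM. Exercised 2 and sedentary 1 and 2 were the high libraries, and Bmp10, another atrial marker, had at most 4 counts in any female library. Red cell genes followed in part: Hbb-bs, an adult haemoglobin chain, was at 4.47, 77.1 and 10.5 CPM in the exercised and 969, 453 and 9.26 CPM in the sedentary libraries. Adipoq, the hormone of fat cells, peaked in exercised 2, at 0.501, 10.1 and 0.0753 CPM against 1.28, 1.46 and 0.0886 CPM. The summed CPM of the 5 atrial markers was 62.2 to 324 in exercised and 50.8 to 214 in sedentary libraries, that of the 8 red cell markers 36.3 to 310.1 and 49.2 to 3665, and that of the 6 fat markers 0.753 to 105 and 1.06 to 14.8. The list medians and the genes the results turn on are therefore also given as a pair of values for these strata, first within the libraries with atrial transcripts (exercised 2 against sedentary 1 and 2) and then within those with few (exercised 1 and 3 against sedentary 3). These 2 comparisons share no library, have no test, and leave out the other pairings between the groups, so a difference over all libraries need not lie between them.

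**Figure D1:**
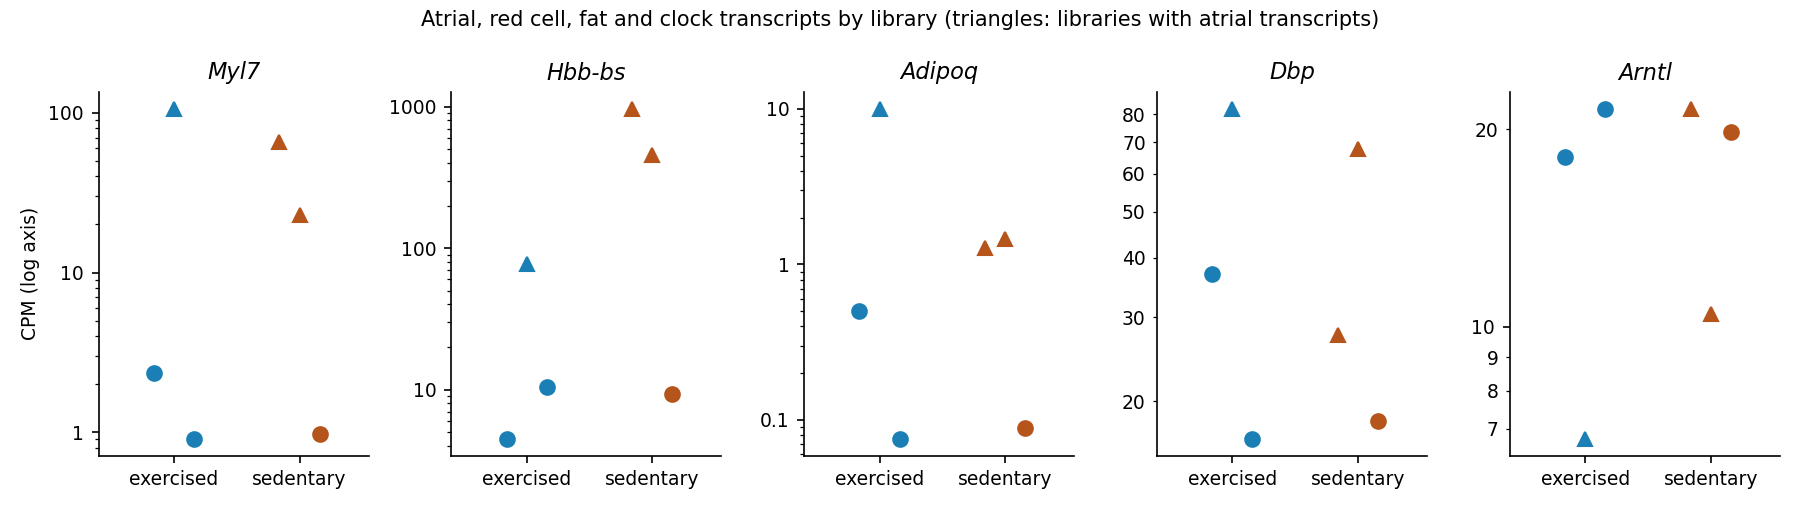
Levels of the atrial gene Myl7, the haemoglobin chain Hbb-bs, the fat cell hormone Adipoq and the clock genes Dbp and Arntl in each female library, as CPM on log axes that differ between panels. Points are libraries 1 to 3 from left to right in each group, and triangles are the libraries with atrial transcripts. The triangles lie above the circles for Myl7, Hbb-bs and Adipoq, while Dbp and Arntl set exercised 2 and sedentary 2 apart from the other libraries.

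No single gene passed for exercise in females. Of 16265 genes tested with edgeR's quasi-likelihood test, 0 passed a Benjamini-Hochberg adjusted p of 0.05 and the smallest adjusted p was 0.999. That smallest value depended on the model. By the same test it was 0.165 in a fit of the 6 female libraries. With a term for the libraries with atrial transcripts it was 0.167, and 0 genes passed in either fit. Of all tested genes 49.4% lay above 0 and 50.6% below. At an unadjusted p of 0.05, 298 genes lay higher (1.83% of those tested) and 338 lower (2.08%), together 3.91%. DESeq2 called 1 gene, the Y-linked Ddx3y, and limma's voom with sample weights called 0. In a fit of the 9 libraries of both sexes with few atrial transcripts, 505 of 17018 genes (2.97%) had an unadjusted p under 0.05 and 0 passed. In 855 genes (5.26%) all exercised libraries lay above all sedentary ones, and in 721 (4.43%) below, together 9.69%; such genes are called separated. The median SE of a log2 difference was 0.14, and the quartiles of all differences were -0.10 and 0.09. Of the 255 genes past 1 in either direction, 9 had a mean above 10 CPM. In data simulated on these libraries, the test found 79% of changes of 1 and 35% of changes of 0.5 on the log2 scale. Each simulated gene had 1 mean level in all libraries, apart from the changes, which were placed only in genes above 1 CPM. Joint shifts of atrial, red cell or fat transcripts between libraries were not simulated, so these shares need not hold for the hearts. The difference between the female and the male exercise effects also passed for 0 genes, with 768 (4.72%) at an unadjusted p of 0.05. Above and below therefore refer to 0 or to the other group's libraries, and no gene is said to have changed.

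The 2 comparisons within strata went the same way only a little more often than not. Of all tested genes 26.3% lay above 0 in both and 26.9% below 0 in both. Across the 16265 genes their differences had a Pearson r of 0.06 (Spearman rho 0.07), and an r of 0.11 over the 8615 genes above 10 CPM. Genes share libraries and scaling, so these are descriptions with no test. In the fatty acid list 25 of 32 members lay above 0 in both, in the citric acid cycle 21 of 27, among immediate early genes 32 of 37 and among macrophage markers 14 of 16. In that order, 19, 18, 15 and 6 of these members were separated above. A separated gene lies on the same side of 0 in both strata by construction, as the strata are parts of the same 6 libraries. For such genes the strata give sizes only, and their agreement adds nothing to the separation. The plot of list medians gives the median of each list in both.

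**Figure D2:**
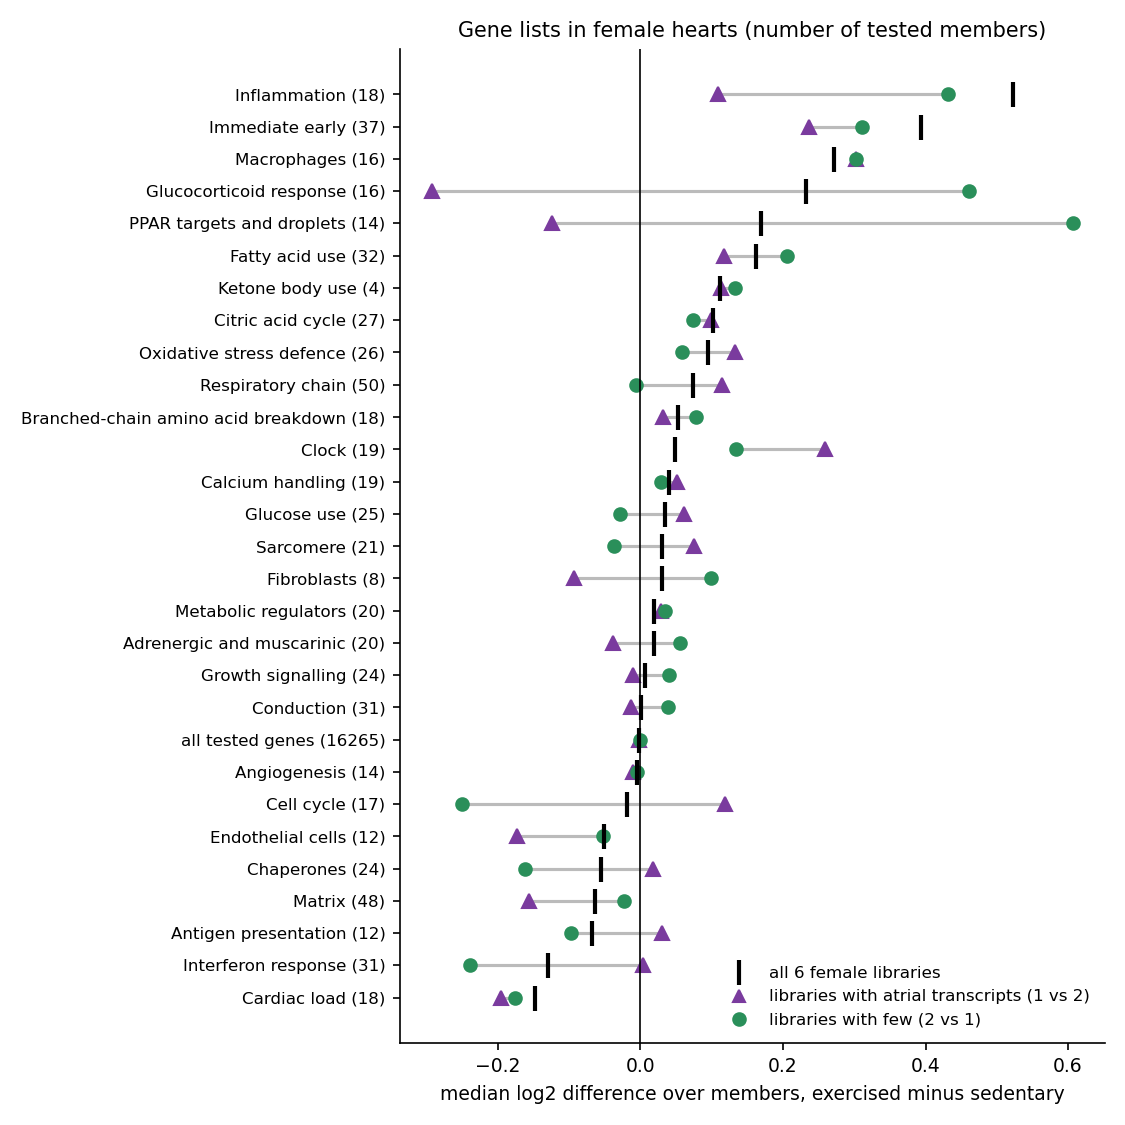
Median log2 difference, exercised minus sedentary, over the tested members of each gene list (number in brackets). Bars are all 6 female libraries, triangles the 3 libraries with atrial transcripts, circles the 3 with few. Fatty acid use, citric acid cycle, immediate early and macrophage genes lay above 0 and cardiac load genes below 0 in both strata, while the glucocorticoid and PPAR lists lay on opposite sides of 0.

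Natriuretic peptides and Myh7, which the loaded ventricle makes, were lower in the exercised hearts than in each of the sedentary ones. Upstream sequences are printed for Nppa, Nppb, Myh7 and Ankrd1, which with the receptor Npr1 were the list members whose exercised libraries all lay below the sedentary ones. The MCAT motif, CATTCC on either strand, is a binding element of TEAD factors known from cardiac and skeletal muscle promoters. It was found in the 250 bases before the start of 4 of the 16 list members with a RefSeq promoter (25%; Nppb, Myh7, Acta1 and Ankrd1) and of 14.4% of 27025 mouse genes. Capitals mark the motif. The sequences come from RefSeq (GRCm38.p6) and read 5′ to 3′ along the strand of the gene: Nppa is chr4:148000472-148000721 (plus strand), Nppb chr4:147985650-147985899 (plus), Myh7 chr14:54994627-54994876 (minus, the first of 2 listed starts) and Ankrd1 chr19:36119845-36120094 (minus).
Nppa: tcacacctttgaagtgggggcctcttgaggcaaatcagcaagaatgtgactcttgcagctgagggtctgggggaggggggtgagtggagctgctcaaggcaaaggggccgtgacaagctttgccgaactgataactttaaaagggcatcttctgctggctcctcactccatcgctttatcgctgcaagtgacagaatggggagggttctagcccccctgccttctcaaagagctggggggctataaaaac
Nppb: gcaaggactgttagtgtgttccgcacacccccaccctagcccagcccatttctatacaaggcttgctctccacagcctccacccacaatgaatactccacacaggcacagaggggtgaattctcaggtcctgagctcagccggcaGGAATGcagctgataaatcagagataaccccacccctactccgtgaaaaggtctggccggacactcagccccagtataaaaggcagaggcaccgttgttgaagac
Myh7: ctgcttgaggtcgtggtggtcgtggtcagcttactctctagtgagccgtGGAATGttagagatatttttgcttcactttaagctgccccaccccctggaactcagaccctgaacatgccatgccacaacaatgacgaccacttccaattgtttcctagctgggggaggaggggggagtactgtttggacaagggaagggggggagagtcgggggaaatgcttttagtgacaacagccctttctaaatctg
Ankrd1: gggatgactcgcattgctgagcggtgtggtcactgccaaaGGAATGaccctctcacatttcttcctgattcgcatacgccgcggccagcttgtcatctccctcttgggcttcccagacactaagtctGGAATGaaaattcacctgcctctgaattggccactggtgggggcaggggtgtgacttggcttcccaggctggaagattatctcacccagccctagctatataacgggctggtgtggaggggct
Nppa holds no match in this window, Nppb and Myh7 hold 1 each, and Ankrd1 holds 2. Matches describe letters only. MCAT was among several motifs searched in every list, and no motif share was tested. In the cardiac load list the CArG box was in 2 of 16 promoters (12.5% against 1.62% of all). The half-site AGGTCA was also in 2 (12.5% against 15.8%). The sarcomere list, whose median difference was near 0, held the motif in 7 of 18 promoters (38.9%).

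Nppa, the gene of atrial natriuretic peptide, which lowers blood volume and pressure, was at 54.5, 90.2 and 83.2 CPM in the exercised and 222, 196 and 249 CPM in the sedentary libraries. Its groups were far apart, and the highest exercised library, with the most atrial transcript, was still below the lowest sedentary one. The difference was -1.55 ± 0.42, with -1.21 among the libraries with atrial transcripts and -1.89 among those with few. Leaving out 1 library at a time gave -1.69 to -1.36. Nppb, the gene of the B-type peptide, was at 277, 384 and 359 CPM in the exercised and 542, 413 and 751 CPM in the sedentary libraries. Here the groups were separated by a narrow gap, and sedentary 3 alone was far above the rest (-0.74 ± 0.44; -0.30 and -1.25 within the strata). Npr1, the receptor through which both peptides raise cyclic GMP, was also below without overlap, at 24.6, 23.9 and 27.6 CPM against 29.4, 33.7 and 29.2 CPM (-0.28 ± 0.09; strata -0.40 and -0.16). Corin, the protease that activates the peptides, overlapped (0.13 ± 0.14).

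Myh7, the slow beta myosin heavy chain, was at 816, 935 and 684 CPM in the exercised and 1282, 1708 and 1888 CPM in the sedentary libraries. Every sedentary library was higher than every exercised one, and the difference was -1.0 ± 0.25 over all 6 libraries, -0.66 among those with atrial transcripts and -1.34 among those with few. Its neighbour Myh6, the fast alpha chain that makes up nearly all myosin of the adult mouse ventricle, was at 26455, 27294 and 27838 CPM in the exercised and 28291, 27450.5 and 25902 CPM in the sedentary libraries and overlapped fully (-0.001 ± 0.07). As a share of the counts of both chains, Myh7 made up 2.99%, 3.31% and 2.40% in exercised and 4.33%, 5.86% and 6.79% in sedentary libraries. The means were 2.90% ± 0.46 and 5.66% ± 1.24 (SD, n = 3 each), a difference of -2.76 percentage points (exact permutation test, two-sided, p = 0.1, the smallest that 3 against 3 libraries allow). Male hearts held shares of 2.84% ± 0.70 exercised and 3.06% ± 0.20 sedentary (SD, n = 3 each), so the sedentary females were the group with the higher share. The Myh7 difference in males was -0.14 ± 0.25, and the female minus male effect was -0.86 ± 0.35 (unadjusted p = 0.035, adjusted p = 0.885 or more by edgeR).

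**Figure D3:**
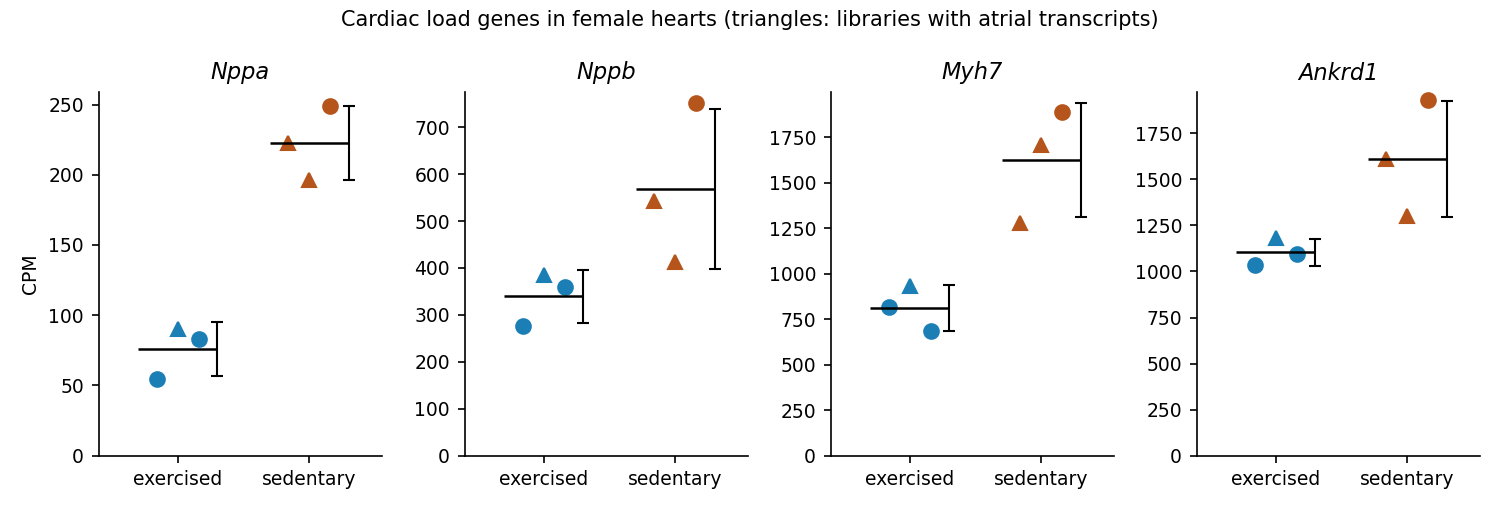
CPM of Nppa, Nppb, Myh7 and Ankrd1 in each female library, on linear axes from 0. Points are libraries 1 to 3 from left to right, triangles those with atrial transcripts, horizontal lines group means and error bars 1 SD (n = 3). In all 4 genes the exercised libraries lie below the sedentary ones, with the widest gap for Nppa.

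The 9 stretch-responsive genes all lay below 0 over the 6 libraries, but their median was on opposite sides within the strata (0.07 and -0.19), and 3 of 9 lay below 0 in both. Ankrd1, a nuclear and sarcomeric protein induced by stretch, was at 1034, 1183 and 1096 CPM in the exercised and 1609.7, 1300.1 and 1929.6 CPM in the sedentary libraries (-0.55 ± 0.21; -0.29 and -0.86 within the strata). Its groups did not overlap, and the effect in males lay on the other side (0.31 ± 0.21). Acta1, skeletal alpha-actin, had 325, 224 and 429 CPM against 551, 319 and 221 CPM: sedentary 1 was the highest and sedentary 3 the lowest library, and the strata disagreed (-0.91 and 0.76). Xirp2, which binds actin at the intercalated disc, differed by -0.17 ± 0.13 with overlap. Over the list, 15 of 18 members lay below 0 with a median of -0.15, where all tested genes had a median of -0.002. Of these, 5 were below without overlap (background 4.43%) and 0 above. The medians of the strata were -0.20 and -0.18, while 7 of 18 members lay below 0 in both (background 26.9%), and males had 0.07. With 1 library left out, the median ran from -0.20 (without sedentary 2) to -0.06 (without sedentary 1).

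Structural sarcomere genes stayed near 0, with a median of 0.03 over 21 members and medians of 0.08 and -0.04 in the strata. Separated were 2 above (background 5.26%) and 2 below (background 4.43%). Thick filament companions of Myh7 were the 2 below: Myom2, the M-band protein, at 1273, 1443 and 1354 CPM against 1664, 1601 and 1949 CPM (-0.36 ± 0.16; strata -0.18 and -0.57), and Mybpc3, the myosin-binding protein, at -0.18 ± 0.09. Both thin filament proteins without overlap were above, namely Tpm1, tropomyosin (0.15 ± 0.07), and Actc1, cardiac actin (0.12 ± 0.06). For Tpm1 the difference was 0.22 in the libraries with atrial transcripts and 0.04 in the others. All 6 thin filament genes lay above 0 over the 6 libraries, and 2 of 6 in both strata.

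Genes of fatty acid use lay almost all above 0. Of 32 genes, 30 lay above 0, 19 of them without overlap (background 5.26%), and 16 had an unadjusted p under 0.05 (background 1.83%). The shifts were small, with a median of 0.16. They lay above 0 within both strata for 25 genes (background 26.3%), with medians of 0.12 and 0.21. Without each library in turn the median ran from 0.13 to 0.19. Males had a median of -0.10, with 8 of 32 above 0, and the female minus male effect had an unadjusted p under 0.05 in 17 genes (background 4.72%) and an adjusted p under 0.05 in 0.

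Of the 6 genes of uptake and carriers 1 was separated, and of the 2 of malonyl-CoA control 0. Fabp3, the fatty acid binding protein of heart muscle, was at 2754, 2556 and 2528 CPM in the exercised and 2413, 2144 and 2201 CPM in the sedentary libraries and did not overlap (0.21 ± 0.09; strata 0.17 and 0.26). Cd36, the main transporter of the cell membrane, overlapped (0.16 ± 0.10), with 0.0007 and 0.35 within the strata. In the next step Acsl1, which attaches coenzyme A, also overlapped (0.15 ± 0.07). Cpt1a, the liver form of the first carnitine transferase, lay at 0.01 ± 0.16, but at 0.43 in the fit of the 9 libraries with few atrial transcripts. The muscle form, Cpt1b, was counted at only 8.79 to 11.8 CPM and lay below 0 with overlap. The annotation has a longer gene over the whole of Cpt1b on the same strand, and reads shared by both genes may not have been counted, so its value is uncertain.

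The inner part of the shuttle was higher in every exercised library. Cpt2, which returns the acyl group to coenzyme A inside the mitochondrion, was at 206, 210.5 and 217 CPM in the exercised and 183, 169 and 163 CPM in the sedentary libraries (0.30 ± 0.09). Its exercised libraries lay close together, above all sedentary ones, and the differences within the strata were 0.26 and 0.38. Slc25a20, the carnitine carrier, was at 211, 188 and 201 CPM against 177, 159 and 163 CPM (0.27 ± 0.09; strata 0.16 and 0.34) and Crat, carnitine acetyltransferase, at 524, 519 and 476 CPM against 453, 444 and 430.4 CPM (0.19 ± 0.06; strata 0.21 and 0.21).

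For the acyl-CoA dehydrogenases and their electron carriers, 6 of 8 genes were above without overlap. Etfdh, which hands the electrons of beta-oxidation to ubiquinone, was at 721, 704 and 697 CPM in the exercised and 614, 584 and 552 CPM in the sedentary libraries. The lowest exercised library was well above the highest sedentary one (0.28 ± 0.07; 0.23 and 0.36 within the strata). In males the same gene was at -0.17 ± 0.07, and the female minus male effect was 0.44 ± 0.10 (unadjusted p = 0.000803). The dehydrogenases for long, very long and medium chains followed with smaller differences: Acadl 0.16 ± 0.06, Acadvl 0.18 ± 0.08 and Acadm 0.12 ± 0.05.

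Later steps were separated throughout: all 5 genes of the hydratase, dehydrogenase and thiolase steps and all 4 for unsaturated chains were above without overlap. Hadh, the short-chain hydroxyacyl dehydrogenase, was at 626, 621 and 624 CPM in the exercised and 569, 535 and 549.8 CPM in the sedentary libraries, and the exercised libraries were nearly equal (0.18 ± 0.07; strata 0.17 and 0.18). The 2 subunits of the trifunctional protein differed by 0.09 ± 0.08 (Hadha) and 0.16 ± 0.06 (Hadhb), and the thiolase Acaa2 by 0.25 ± 0.09. Among the enzymes for double bonds, Ech1 was at 1283, 1245 and 1206 CPM against 1097, 1011 and 1023 CPM (0.25 ± 0.09; strata 0.24 and 0.28), Decr1 at 0.21 ± 0.09 and Eci1 at 0.17 ± 0.06. Males lay below 0 for Ech1 (-0.12 ± 0.09) and Decr1 (-0.23 ± 0.09) but not for Eci1 (0.07 ± 0.06). These are per-gene values on the log2 scale, and no list as a whole was tested.

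**Figure D4:**
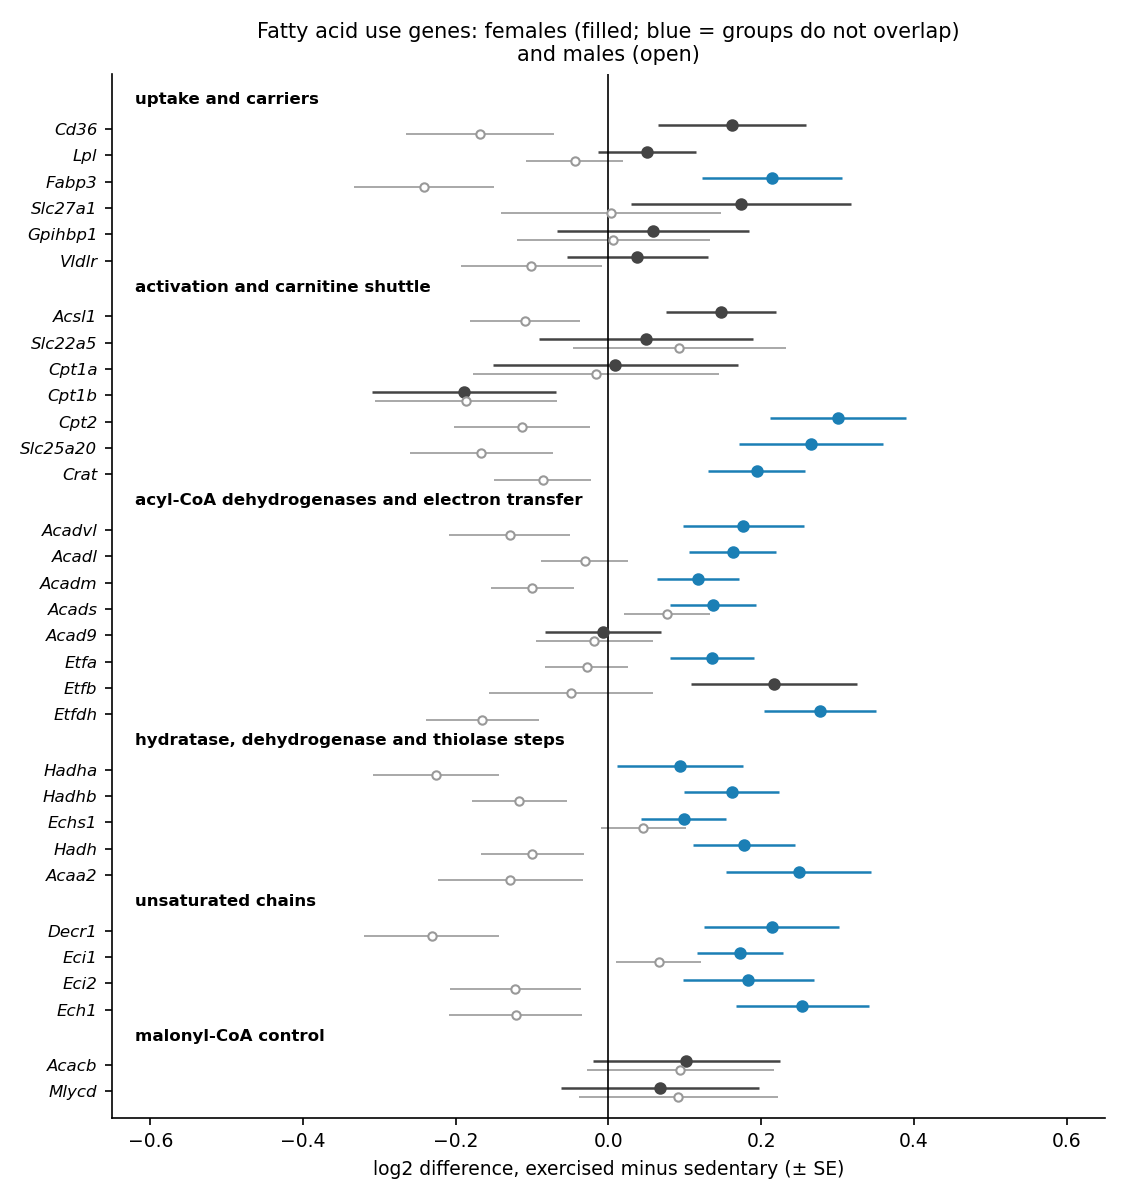
Log2 difference, exercised minus sedentary, with its SE for the 32 genes of fatty acid use, by step. Filled points are females (blue where exercised and sedentary libraries do not overlap) and open points are males. In females 30 genes lie above 0, in males 8.

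The list of PPAR targets and lipid droplet genes, which respond to the fatty acid supply, varied between libraries far more. Over 14 members the median was 0.17, but -0.12 in the libraries with atrial transcripts and 0.61 in those with few, and 0 members were separated. With 1 library left out it ran from 0.05 (without sedentary 3) to 0.37 (without sedentary 1). Pdk4, the kinase that shuts pyruvate out of the citric acid cycle, was at 655, 258 and 709 CPM in the exercised and 763, 292 and 426 CPM in the sedentary libraries. Exercised 2 and sedentary 2 were the low libraries, in both groups, so that the strata gave -0.87 and 0.68. Acot1, an acyl-CoA thioesterase, was at 36.7, 21.2 and 24.0 CPM against 26.6, 14.3 and 11.5 CPM. Sedentary 3 was the lowest library. The lipase Pnpla2 differed by 0.27 ± 0.13 and the droplet protein Plin5 by 0.24 ± 0.15, both with overlap.

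Regulators of these enzymes had a median close to 0. Over 20 transcription factors and coactivators of metabolism the median was 0.02, with 0 above and 0 below without overlap. The strata gave 0.03 and 0.03, with 9 members above and 1 below 0 in both, and 16 of 20 lay above 0 in the fit of 9 libraries. Ppargc1a, the coactivator PGC-1alpha, was at 96.1, 80.3 and 80.4 CPM in the exercised and 106, 72.9 and 87.4 CPM in the sedentary libraries (-0.06 ± 0.18; strata -0.13 and 0.01). Ppara, the receptor for fatty acids, was at 0.19 ± 0.13 in females and -0.50 ± 0.13 in males, a female minus male effect of 0.69 ± 0.19 (unadjusted p = 0.00256).

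Genes of the citric acid cycle and of pyruvate entry lay above 0 in 24 of 27 cases (cycle enzymes 16 of 17). Without overlap, 18 genes were above, 13 of them cycle enzymes (background 5.26%), and 0 below (background 4.43%). The median was 0.10, with 0.10 and 0.07 in the strata, and 21 genes were above 0 in both strata. Cs, citrate synthase, which is used as a measure of mitochondrial content, was at 1255, 1232 and 1234 CPM in the exercised and 1145, 1121 and 1153 CPM in the sedentary libraries. Within each group its libraries were within a narrow band, and the bands did not touch (0.12 ± 0.05; strata 0.12 and 0.11). Dlst, of the oxoglutarate dehydrogenase complex (0.12 ± 0.05), Sucla2, of succinyl-CoA synthetase (0.15 ± 0.07), Mdh2, malate dehydrogenase (0.14 ± 0.06), and Pdhb, of the pyruvate dehydrogenase complex (0.12 ± 0.05), were separated as well. The simulated data held no changes this small, so how often the test would find them was not measured.

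The respiratory chain was less even. Of 50 nuclear-coded genes 47 lay above 0, with a median of 0.07 and 12 above without overlap (background 5.26%). The median was 0.11 in the libraries with atrial transcripts and -0.01 in those with few, and 22 of 50 were above 0 in both. With 1 library left out it ran from 0.04 (without sedentary 2) to 0.12 (without sedentary 3). Complex III and cytochrome c held 5 of the separated genes and the ATP synthase 4, while complex IV held 0 of 10. Cycs, the electron carrier cytochrome c, which has close copies in the genome, was at 1058, 998 and 924 CPM in the exercised and 861, 814 and 854 CPM in the sedentary libraries (0.24 ± 0.07; 0.25 and 0.21 within the strata). Uqcrfs1, the Rieske protein of complex III, was at 0.15 ± 0.06, with 0.22 and 0.05. Atp5a1, the alpha subunit of the ATP synthase, was at 0.13 ± 0.05 and its membrane subunit Atp5g3 at 0.18 ± 0.07. Males had a median of 0.10 over the same 50 genes.

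Lists for other fuels were also described. All 4 genes of ketone body use lay above 0, with a median of 0.11 (0.11 and 0.13 in the strata). Of these, 1 was above without overlap (background 5.26%). With 1 library left out the median ran from 0.06 (without sedentary 3) to 0.15 (without exercised 3). In the breakdown of branched-chain amino acids, 16 of 18 genes lay above 0 with a median of 0.05 (strata 0.03 and 0.08). There, 6 genes were above without overlap (background 5.26%). Among them were Dbt, of the branched-chain dehydrogenase, and Mut, methylmalonyl-CoA mutase, whose libraries were 138, 136 and 138 CPM against 125, 127 and 128 CPM. The difference in Mut was 0.12 ± 0.06 in females and -0.21 ± 0.06 in males (female minus male unadjusted p = 0.0012). Acat1, the thiolase that ends both isoleucine and ketone breakdown, was at 0.15 ± 0.06. Glucose use stood near 0 (0.03 over 25 genes, strata 0.06 and -0.03), with Pgk1, a glycolytic kinase, at 0.14 ± 0.06. Its separated genes were 2 above (background 5.26%) and 1 below (background 4.43%).

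**Figure D5:**
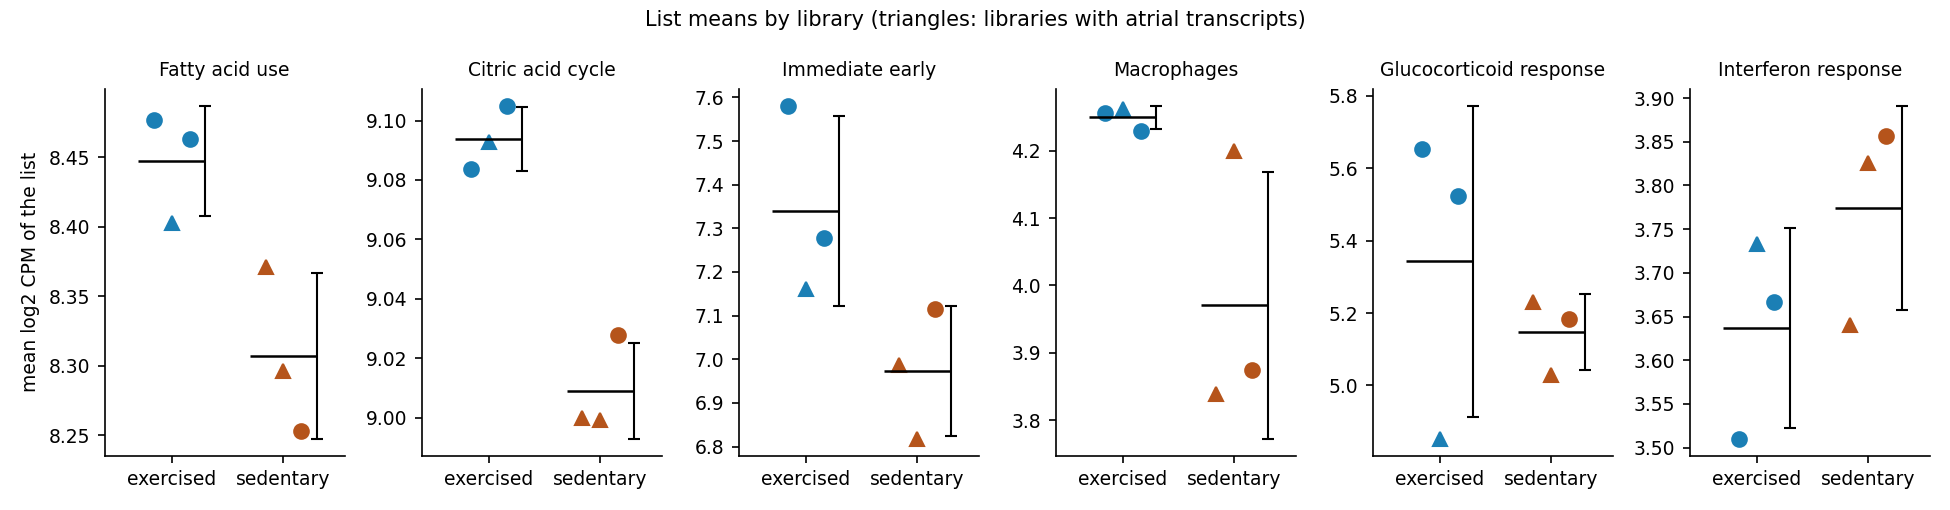
Mean log2 CPM over the tested members of 6 gene lists in each female library, on axes that differ between panels and do not start at 0. Points are libraries 1 to 3 from left to right, triangles those with atrial transcripts, lines group means and error bars 1 SD (n = 3). The fatty acid, citric acid cycle, immediate early and macrophage lists are higher in all exercised than in all sedentary libraries, and the glucocorticoid and interferon lists overlap.

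Immediate early genes, which cells switch on within minutes of a stimulus and of handling, lay mostly above 0. Of 37 genes, 35 lay above 0 with a median of 0.39, and 2 had an unadjusted p under 0.05 (background 1.83% on this side). The strata gave lower medians of 0.24 and 0.31, and with 1 library left out the median ran from 0.24 (without exercised 1) to 0.46 (without sedentary 3). Groups were separated in 15 genes, all above (background 5.26%), and 32 were above 0 in both strata. Jun, an AP-1 subunit, was at 1084, 1055 and 1092 CPM in the exercised and 838, 775 and 820.4 CPM in the sedentary libraries. The exercised libraries were nearly equal and well above the sedentary ones (0.41 ± 0.15; strata 0.39 and 0.41). Its partners Fos (0.50 ± 0.36) and Fosb (0.66 ± 0.39; strata 0.65 and 0.76) and the relatives Junb (0.46 ± 0.38) and Jund (0.44 ± 0.24) were separated too, with wider errors.

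Fosb stood at 722, 746 and 731 CPM against 529, 430.0 and 429 CPM, and Ier2, an early nuclear protein, at 299.5, 260.3 and 263 CPM against 178, 189.5 and 171 CPM (0.61 ± 0.27; strata 0.50 and 0.71). Both had tight groups with a clear gap. Egr3, a zinc finger factor, was at 176, 125 and 103 CPM in the exercised and 89.2, 79.9 and 78.7 CPM in the sedentary libraries (0.70 ± 0.28; strata 0.56 and 0.77), highest in exercised 1, and Nr4a1, an orphan nuclear receptor of the same early wave, was at 0.33 ± 0.17. Dusp1, the phosphatase that ends MAP kinase signalling, was at 803, 809 and 894 CPM against 702, 747 and 720.3 CPM (0.21 ± 0.10; strata 0.16 and 0.23). Klf2, which endothelial cells make under flow, overlapped, at 0.11 ± 0.16 in females and 0.71 ± 0.16 in males. Males had 37 of 37 members above 0 with a median of 0.57. The cyclic AMP element TGACGTCA, searched on either strand, was in 4 of 28 promoters of this list (14.3%; Maff, Dusp1, Btg2 and Ppp1r15a) and in 1.77% of all 27025. Other motifs were searched in the same way in every list, and the text shows only part of them. Here the E-box CACGTG was in 7 of 28 (25% against 6.86% of all) and the CArG box in 3 (10.7% against 1.62%). The AP-1 site was in 1 (3.57% against 5.16%) and the half-site AGGTCA in 3 (10.7% against 15.8%). No motif share was tested, and no binding was measured.

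Clock genes divided the libraries without regard to group. Dbp, an output of the clock that swings widely over the day, was at 37.0, 82.3 and 16.6 CPM in the exercised and 27.6, 67.7 and 18.2 CPM in the sedentary libraries, and Arntl, the activator that peaks at the opposite time, at 18.1, 6.75 and 21.5 CPM against 21.5, 10.5 and 19.8 CPM. Exercised 2 and sedentary 2 had the highest Dbp and the lowest Arntl of the 6. Per3, a repressor, showed the same order of these libraries, at 11.6, 30.2 and 7.04 CPM against 11.4, 24.6 and 10.1 CPM. No clock gene of 19 was separated between the groups, and the median of 0.05 (strata 0.26 and 0.13) ran from -0.04 (without sedentary 3) to 0.17 (without exercised 3) with 1 library left out at a time. No source used here gives the hour at which each heart was taken.

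Targets of the glucocorticoid receptor, the sensor of corticosterone, lay on opposite sides in the strata. Over 16 genes, 13 of them targets, the median was 0.23, with -0.29 in the libraries with atrial transcripts and 0.46 in those with few. The 13 targets alone had 0.26, with -0.31 and 0.52. Fkbp5, a chaperone of the receptor, was at 76.3, 31.6 and 52.4 CPM in the exercised and 44.3, 43.4 and 35.6 CPM in the sedentary libraries. Exercised 1 and 3 were the highest and exercised 2 the lowest of the 6, and Arrdc2, an arrestin-related target, repeated this order at 26.1, 6.71 and 26.0 CPM against 10.5, 8.54 and 14.7 CPM. Sgk1, a kinase target, was at 198, 139 and 222 CPM against 176, 153 and 135 CPM. None of the 16 was separated between groups, and with 1 library left out the median ran from 0.08 (without exercised 1) to 0.44 (without exercised 2).

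All 16 macrophage markers lay above 0, with a median of 0.27 and 6 above without overlap (background 5.26%). Above 0 in both strata were 14 markers (background 26.3%), with medians of 0.30 and 0.30. With 1 library left out the median ran from 0.18 (without sedentary 1) to 0.41 (without sedentary 2). Their summed level was 554 to 591 CPM in exercised and 416 to 530.4 CPM in sedentary libraries, and sedentary 2 was the closest to the exercised range. In bulk tissue, more cells of a type and more RNA of these genes per cell cannot be told apart. Lyz2, lysozyme, was at 161, 154 and 159.7 CPM in the exercised and 114, 134 and 121 CPM in the sedentary libraries (0.36 ± 0.15; strata 0.32 and 0.41). Lyve1 and Timd4, both known from the resident macrophages of the heart, were at 0.42 ± 0.19 and 0.52 ± 0.21, the latter at only 2.55, 2.40 and 2.82 CPM against 1.62, 2.20 and 1.60 CPM. Cd68, of the lysosome, was at 9.26, 8.99 and 8.85 CPM against 4.98, 7.59 and 7.89 CPM and the mannose receptor Mrc1 at 0.35 ± 0.18. For Lyve1 the strata gave 0.06 and 0.68. The 6 lymphocyte and 4 neutrophil markers were all below the filter, with at most 31 counts in any library.

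Inflammatory genes lay above 0 in 14 of 18 tested cases (median 0.52), and 3 were separated, all above (background 5.26%). Ccl7, a chemokine for monocytes, was at 32.5, 22.8 and 35.3 CPM in the exercised and 11.7, 15.6 and 21.6 CPM in the sedentary libraries (0.89 ± 0.44; strata 0.76 and 0.64), and exercised 2 was close to sedentary 3. The related Ccl2 overlapped in just this pair (0.77 ± 0.33). Serpina3n, an acute phase protease inhibitor, was at 12.9, 8.63 and 8.85 CPM against 8.22, 6.41 and 5.23 CPM (0.60 ± 0.21; strata 0.25 and 1.02). The medians within the strata were 0.11 and 0.43, males had 0.73, and with 1 library left out the median ran from 0.35 (without exercised 1) to 0.68 (without exercised 2).

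Interferon-stimulated genes were on the other side: 27 of 31 lay below 0, with a median of -0.13, 6 below without overlap (background 4.43%) and 0 above. Oas2, a sensor of viral RNA, was at 14.9, 14.5 and 17.1 CPM in the exercised and 18.4, 20.1 and 19.9 CPM in the sedentary libraries (-0.33 ± 0.17; strata -0.40 and -0.32). Bst2, which tethers virus to the membrane, was at 20.9, 20.4 and 21.3 CPM against 22.0, 25.1 and 28.4 CPM (-0.27 ± 0.15; strata -0.20 and -0.43), the GTPase Gbp4 at -0.51 ± 0.32 and Ifit2 at -0.29 ± 0.13 with overlap. The list depended on the libraries compared, with medians of 0.003 and -0.24 in the strata and -0.21 (without sedentary 1) to -0.06 (without exercised 1) with 1 library left out. In Ifit2 the males were at 0.31 ± 0.13, a female minus male effect of -0.59 ± 0.19 (unadjusted p = 0.00639). Antigen presentation genes had a median of -0.07 over 12 members (strata 0.03 and -0.10).

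Of 48 matrix genes, 36 lay below 0, with a median of -0.06, 7 below (background 4.43%) and 1 above without overlap (background 5.26%), and the separated ones were mostly not collagens. The strata gave medians of -0.16 and -0.02, and with 1 library left out the median ran from -0.15 (without exercised 3) to -0.05 (without exercised 2). Postn, periostin, a matricellular protein of activated fibroblasts and valves, was at 35.1, 36.0 and 36.2 CPM in the exercised and 53.5, 48.8 and 43.5 CPM in the sedentary libraries. The exercised libraries were nearly equal and all below the sedentary ones (-0.44 ± 0.12; -0.50 and -0.29 within the strata). Thbs4, a thrombospondin that rises in loaded hearts, was at 3.59, 3.51 and 2.22 CPM against 6.75, 5.74 and 4.56 CPM (-0.88 ± 0.26; strata -0.81 and -0.68). Col8a1, a short-chain collagen, was at -0.27 ± 0.11 and Fbln1, fibulin 1, at -0.17 ± 0.08. The main fibrillar collagen Col1a1 was at 75.7, 84.3 and 105 CPM against 89.7, 100.1 and 87.2 CPM and overlapped (-0.06 ± 0.11; strata -0.17 and 0.03). Fibroblast markers had a median of 0.03 (strata -0.09 and 0.10) and a summed level of 2437 to 2853 CPM in exercised and 2388 to 2769 CPM in sedentary libraries.

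Valve and cartilage-like markers were uneven between libraries. Their sum was 40.6, 21.3 and 11.9 CPM in the exercised and 53.8, 35.2 and 18.4 CPM in the sedentary libraries, highest in sedentary 1 and exercised 1. The median over the 6 tested markers was -0.92, with -0.83 and 0.27 within the strata and -1.23 (without exercised 1) to -0.40 (without sedentary 1) with 1 library left out, and its part in the matrix values was not tested. The 7 matricellular genes had a median of -0.11, with -0.23 and -0.24 in the strata. Of them, 3 lay below and 0 above 0 in both strata. In the fit of 9 libraries 4 lay below 0 and 3 above.

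Calcium handling stayed near 0 (median 0.04 over 19 genes, strata 0.05 and 0.03). In this list 3 genes were above (background 5.26%) and 1 below (background 4.43%) without overlap. Atp2a2, the calcium pump SERCA2 that refills the store between beats, was at 16986, 17217 and 16754 CPM in the exercised and 16080.0, 15974 and 14210.3 CPM in the sedentary libraries, with sedentary 3 the lowest (0.14 ± 0.07; strata 0.10 and 0.25). Its inhibitor Pln overlapped (0.02 ± 0.09), as did the release channel Ryr2 (0.11 ± 0.10). Cacna2d1, a subunit of the L-type channel, was separated at 0.18 ± 0.08, with males at -0.13 ± 0.08.

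Conduction genes centred on 0 (strata -0.01 and 0.04), with 1 of 31 above (background 5.26%) and 1 below (background 4.43%) without overlap. Kcnv2, a modifier of potassium channels, was at 14.2, 12.9 and 16.2 CPM against 12.6, 10.7 and 11.8 CPM (0.30 ± 0.15; strata 0.15 and 0.35). Kcnd2, of the transient outward current, overlapped at 0.30 ± 0.20, with males at -0.42 ± 0.20. Hcn4, the pacemaker channel, was at 5.93, 7.03 and 4.74 CPM against 4.34, 5.07 and 3.37 CPM, with exercised 2 the highest. Of the transcription factors, Irx3, active in the fast conduction system, was below without overlap at 37.1, 38.1 and 33.9 CPM against 40.3, 50.7 and 45.4 CPM (-0.32 ± 0.18; strata -0.25 and -0.36; males 0.41 ± 0.18), and Tbx3, of the node, was at -0.33 ± 0.13 with overlap. The 20 genes of adrenergic and muscarinic signalling had a median of 0.02 (strata -0.04 and 0.06). Without overlap were 1 above (background 5.26%) and 1 below (background 4.43%), the latter among cyclases, G proteins and kinases. The gene above was Rgs2, which shortens G protein signals, at 79.2, 70.8 and 66.9 CPM against 45.8, 62.0 and 61.0 CPM (0.36 ± 0.18; strata 0.41 and 0.26).

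Growth signalling genes had a median of 0.01 over 24 tested members (strata -0.01 and 0.04), and 1 was separated, below (background 4.43%). That gene, Eif4ebp1, a repressor of translation that the mTOR kinase controls, was at 37.9, 39.4 and 65.9 CPM in the exercised and 73.5, 67.1 and 80.0 CPM in the sedentary libraries. Exercised 1 and 2 lay far below all other libraries and exercised 3 just below the sedentary group (-0.62 ± 0.18; -0.83 and -0.68 within the strata). Without exercised 3 it was the only gene to pass, at -0.93 and an adjusted p of 0.0049 by edgeR, with exercised 1 and 2 left in that group. In males it was at 0.35 ± 0.18, and the female minus male effect was -0.97 ± 0.25 (unadjusted p = 0.00275).

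Of genes for defence against oxidation, 24 of 26 lay above 0 (median 0.09, strata 0.13 and 0.06), with 2 separated above (background 5.26%). Both separated genes remove superoxide or peroxide. Mgst1, a glutathione transferase of membranes, overlapped between the groups, at 34.5, 44.6 and 27.0 CPM against 29.3, 28.8 and 19.9 CPM, highest in exercised 2. Chaperones had a median of -0.06 (strata 0.02 and -0.16), cell cycle genes of -0.02 (strata 0.12 and -0.25) and angiogenesis genes of -0.004 (strata -0.01 and -0.005). Endothelial markers were below 0 in 10 of 12 cases, by a median of -0.05 (strata -0.17 and -0.05), with none separated.

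Acta2 and Myh11 of smooth muscle lay above 0 in females and below 0 in males. Acta2, smooth muscle actin, was at 165, 97.1 and 117 CPM in the exercised and 95.5, 52.2 and 87.7 CPM in the sedentary libraries. Groups were separated by a small gap, with exercised 1 the highest and sedentary 2 the lowest (0.69 ± 0.25; strata 0.46 and 0.66; males -0.64 ± 0.25; female minus male 1.32 ± 0.35, unadjusted p = 0.00391). Myh11, smooth muscle myosin, overlapped (0.39 ± 0.22; strata 0.14 and 0.71; males -0.60 ± 0.22). Over the 8 markers of smooth muscle and pericytes the median was 0.19 (strata 0.04 and 0.13), with 5 above 0 and 3 below. With a term for the libraries with atrial transcripts, 4 lay above 0 and 4 below. The summed level of the markers was 840, 702 and 864 CPM in the exercised and 738, 741 and 740 CPM in the sedentary libraries. By this sum exercised 2 was the lowest library. Only Acta2 was separated, above (background 5.26%). In males 3 of 8 lay above 0.

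Red cell transcripts were lower in exercised 2 than in sedentary 1 and 2, and no red cell or platelet marker was separated between the groups. At an unadjusted p under 0.05 by edgeR, 6 of 7 red cell and 2 of 3 tested platelet markers lay lower (background 2.08%). Over 7 tested red cell markers the median was -3.96 in all 6 libraries, -3.10 in those with atrial transcripts and -0.35 in those with few. Ppbp, a platelet chemokine, was at 0.250, 0.479 and 0.151 CPM against 3.47, 3.11 and 0.0886 CPM. Sedentary 1 and 2 alone were high, and with sedentary 3 left out Ppbp was the only gene to pass by edgeR (adjusted p = 0.025).

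The 10 genes of smallest p on each side, protein-coding or long noncoding with an established name, had unadjusted p from 0.000436 up and did not pass. On the higher side, with Etfdh, Cycs and Cpt2, stood Vwa8, a mitochondrial ATPase, at 266, 257 and 274 CPM in the exercised and 237, 217 and 200.3 CPM in the sedentary libraries. It lay at 0.28 ± 0.08 in females and -0.27 ± 0.08 in males, a female minus male effect of 0.55 ± 0.11 (unadjusted p = 0.000126). Fah, the last enzyme of tyrosine breakdown (0.40 ± 0.11), Fastkd1, of mitochondrial RNA (0.22 ± 0.07), and Mcl1, which keeps cells from apoptosis (0.30 ± 0.09), were in the same group. So were Commd9 (0.30 ± 0.09), Pkdrej (0.47 ± 0.13) and Megf11 (0.91 ± 0.27), the last at under 2 CPM.

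Lower in exercised hearts, with Myh7, Postn and Thbs4, was first Dpysl3, a regulator of the cytoskeleton best known from neurons, at 24.4, 26.1 and 29.6 CPM in the exercised and 34.9, 35.4 and 38.7 CPM in the sedentary libraries. Its groups lay well apart, at -0.44 ± 0.10, with -0.43 and -0.53 within the strata and -0.52 to -0.38 without each library in turn. Fgf6, a muscle growth factor, was at only 0.709, 0.759 and 0.565 CPM against 2.38, 1.22 and 2.17 CPM (-1.50 ± 0.35; strata -1.09 and -1.65). Bbc3, the apoptosis inducer PUMA, was at 4.34, 4.15 and 4.41 CPM against 5.69, 5.98 and 6.60 CPM (-0.50 ± 0.15; strata -0.48 and -0.59), on the side opposite to Mcl1. Adora2a, the adenosine receptor that widens vessels, was at -0.44 ± 0.13, with males at 0.19 ± 0.13. The others were Shtn1 (-0.56 ± 0.15), Scgb1c1 (-0.97 ± 0.25) and Cib3 (-1.10 ± 0.32), all under 20 CPM. All 20 were chosen by the size of p, so their separation between the groups is no separate result.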

How the data were processed

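The authors deposited raw read counts, made with Trimmomatic 0.36, STAR 2.5.2b and featureCounts of Subread 1.5.2 on the mouse genome GRCm38, per the submitters' processing notes. No source used here gives the annotation release, kit or strand setting, which leaves values of overlapping genes, antisense genes and close copies uncertain. Of 55401 rows, 55141 have a symbol (GENCODE M21, GRCm38). The 37 mitochondrial-chromosome rows were dropped before scaling. With edgeR 4.0.16 in R 4.3.3, filterByExpr kept 16265 genes, libraries were scaled by the trimmed mean of M-values, and 1 group-means model with 8 residual degrees of freedom was fitted to all 12 libraries. Exercised minus sedentary females, and the same minus the male effect, were tested with the robust quasi-likelihood test and Benjamini-Hochberg adjustment over all genes. The method was tested on simulated data. Values within strata are differences of mean log2 CPM with a prior count of 2.

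The members and the 41 gene lists (690 genes, 663 of them tested) were chosen with earlier results of these data known. Lists were described by counts and medians and were not tested. The named genes are the 10 of smallest p on each side, the 2 of smallest p in each step of a list and a panel of 44 genes, and the text gives a part of them. Cd36, Acsl1, Hadha, Hadhb, Acadvl, Acadm, Junb, Jund, Fosb, Nr4a1, Eci1, Decr1, Pdhb and other list members outside the rule were named after their values were seen. Bmp10 did not pass the filter and was left out of the atrial score. Alternatives, all planned, were 2 other scalings, no filter and CPM above 1 in 3 libraries, DESeq2 1.42.0, limma 3.58.1 voom, fits of the 6 female or the 9 libraries with few atrial transcripts, atrial terms, and each library left out.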

Additional observations from a re-analysis of the deposited data

Results flagged for a closer look

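The mitochondrial-chromosome rows, which no comparison used, held 27.33% of all counts in female sedentary 2 and 0 counts in the other 11 libraries. Its nuclear counts, 23666108, were within the range of the other libraries. Why 1 library differs was not tested.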

How the results depend on the processing

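The count of genes passing was 0 under 2 other scalings, no filter, a stricter filter, the fits of 6 and of 9 libraries, both atrial terms, spread estimates without robustness, limma's voom and an adjusted p of 0.1. It was 1 under DESeq2 (Ddx3y) and ran from 0 to 1 with 1 library left out, with Eif4ebp1 passing without exercised 3 (adjusted p 0.0049) and Ppbp without sedentary 3 (adjusted p 0.025), both by edgeR. The cause was not tested. Separated genes numbered 1573 with RLE scaling and 1595 without scaling beyond library size, against 1576. The Myh7 share differed by -2.20 percentage points per kilobase of exon. Of 39 list medians, 8 changed sign in the 9 libraries with few atrial transcripts, where females are 2 against 1 and the lone sedentary library is assumed to vary like the other groups. The respiratory chain median was -0.002 there and that of the matrix 0.004. Without sedentary 3, 10 of 39 changed sign, and with RLE or upper quartile scaling none did.

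Of 117 named genes, 104 kept their direction in all settings run. In the 9 libraries with few atrial transcripts, the others lay at 0.78 (Acta1), 0.071 (Myh6), 0.017 (Ppargc1a), 0.0045 (Arntl), -0.12 (Per3), 0.055 (Col1a1) and -0.12 (Pln). With the stratum term Myh6 was at 0.019, Pdk4 at -0.17 and Pln at -0.027, and with the atrial score Myh6 was at 0.0024, Per3 at -0.027, Myl7 at -0.24 and Sln at -0.0078. DESeq2 gave 0.000485 for Myh6, and voom gave -0.024 for Cpt1a, -0.018 for Per3, -1.52 for Myl7 and -0.77 for Sln. With 1 library left out, values ran from -0.42 to 0.27 (Acta1), -0.034 to 0.028 (Myh6), -0.12 to 0.11 (Cpt1a), -0.13 to 0.59 (Pdk4), -0.18 to 0.10 (Ppargc1a), -0.47 to 0.20 (Arntl), -0.50 to 0.98 (Dbp), -0.73 to 0.59 (Per3), -0.21 to 0.036 (Col1a1), -0.044 to 0.10 (Pln), -4.22 to 1.60 (Myl7), -4.29 to 1.89 (Sln) and -1.74 to 2.46 (Adipoq). No paired analysis was possible because the labels give no replicate numbers that the groups share. With 3 libraries a group, changes of 0.5 on the log2 scale were found in 35 of 100 simulated cases and changes of 1 in 79 of 100. The same run of 16053 genes made 8 false calls beside these 35 and 79 true ones. Smaller changes and joint shifts of atrial, red cell or fat transcripts between libraries were not simulated.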

Other observations

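Markers of the remaining cell types were described in the same way. The 4 tested Schwann cell markers had a median of 0.16, and their sum was 21.7 to 23.4 CPM in exercised and 16.6 to 23.2 CPM in sedentary libraries. Mesothelial markers, of the covering of the heart, summed to 27.0 to 31.8 CPM in exercised libraries and to 18.5, 19.4 and 61.9 CPM in the sedentary ones, so that sedentary 3 stood above and the other two below the exercised range. Skeletal muscle markers summed to at most 4.03 CPM and platelet markers to 10.2 to 12.5 CPM in exercised and 11.0 to 16.0 CPM in sedentary libraries. The 4 brown fat markers summed to 102 to 117 CPM in exercised and 91.9 to 130 CPM in sedentary libraries, most of it Ppargc1a. Of the 4, Ucp1 and Elovl3 did not pass the filter. Growth arrest and feedback genes of the immediate early list lay above 0 in 17 of 17 cases in females, with a median of 0.28.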
